A study of Rattus norvegicus with 132 samples.

Results

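The jejunum of rats that had been irradiated over the abdomen and left untreated was compared at day 7 with the jejunum of rats that were never irradiated. The members were chosen by their sample labels: 6 irradiated libraries and 6 non-irradiated ones, 12 of the 132 libraries in the series. All came from jejunum epithelium of Sprague Dawley rats, an outbred laboratory strain, as bulk RNA-seq of total RNA. The non-irradiated group received neither radiation nor a drug. The day 7 group received 5 fractions of 4 Gy to the abdomen, given from day 0 to day 4, and no drug. The labels count days after irradiation without saying whether from the first or the last fraction, and they name no sham irradiation. An irradiated untreated group at day 4 (6 libraries) was used for the time comparison. Levels are also given for an irradiated group given water by mouth (6 libraries at day 7). Neither age nor sex of the rats is stated there. The wider study asked how compound Kushen preparations alter radiation mucositis, and the comparison made here is of radiation without a drug.

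The jejunal lining is renewed from stem cells at the base of the crypts. Their daughters divide in the crypt, stop dividing as they reach the villus, and become absorptive enterocytes or secretory goblet, Paneth, enteroendocrine and tuft cells. Radiation kills dividing crypt cells, and the survivors then repopulate the crypts. Lymphocytes sit between the epithelial cells, and villus enterocytes can themselves carry MHC class II, the molecules that show peptides to helper T cells.

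Levels are given as CPM, a gene's count per 1000000 counts of its library, with library totals scaled by TMM (trimmed mean of M values). For each group the lowest, the highest and the median of 6 libraries are given. Fold changes are on the log2 scale with their standard error, and a gene is called higher or lower where its p in the edgeR quasi-likelihood F test, adjusted by Benjamini-Hochberg across the 12501 genes tested, was under 0.05. By this rule 7352 genes were called, 58.8 percent of those tested, so that a call alone sets no gene apart. Where groups are said not to overlap, or to be apart, this describes the libraries of that gene. The share of all genes without overlap was not computed, so this too sets no gene apart. Of all genes tested 31.4 percent were called higher at day 7 and 27.4 percent lower, with a median log2 fold change of 0.02. Every list below is to be read against these shares unless its paragraph says otherwise.

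The libraries held between 17.95 M and 19.74 M counts (M, 1000000). Library names fall into a series 1 and a series 2 by their leading digit, with 3 libraries of each in both groups. The series differed: mitochondrially encoded RNA took 5.82 to 7.25% of the counts in the non-irradiated libraries of series 1 and 12.5 to 20.9% in those of series 2, against 4.35 to 8.70% and 3.66 to 5.29% at day 7. Summed goblet cell genes were 10586 to 11369.7 CPM in the non-irradiated libraries of series 1 and 1463 to 2077 CPM in those of series 2, and summed T cell genes were 269 to 316 and 51.3 to 113 CPM. Library series is a term in the fit, and within-series counts are given beside the lists they change most. "Within series 1" or "within series 2" means the day 7 effect in that series, taken from a fit of all 42 jejunum libraries with a mean for each group in each series. That effect differed between the series for 10.7 percent of genes. Within series 1, 24 percent of genes were called higher and 13.6 percent lower, and within series 2, 29.8 percent and 24.9 percent.

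The tissue label held. Of 13 general epithelial markers 12 were tested, and their sum was 22215 to 29591 CPM (median 27596) in the non-irradiated group and 16472 to 26715 CPM (median 22562) at day 7. Epcam, an adhesion molecule of all gut epithelium, was 3807 to 4608 CPM (median 4485) without irradiation and 1816 to 3467 CPM (median 2547) at day 7, a fall of log2 0.74 that left it well detected. The 12 jejunal markers, among them lactase and sucrase-isomaltase, summed to 65674 to 76946 CPM (median 70955) and 11698 to 52552 CPM (median 35649). The 12 colon markers summed to 442 to 534 CPM (median 478) and 355 to 455 CPM (median 414). Among them Car1 stayed under 1 CPM at the median of both groups.

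The 6 day 7 libraries differed among themselves. Over 10854 genes, the correlation of log2 CPM with each non-irradiated library was 0.934 to 0.966 for replicate 1 and 0.780 to 0.814 for replicate 6, with the others between. This is a description across genes, which are not independent. Non-irradiated libraries correlated with each other at 0.951 to 0.992.

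**Figure D1:**
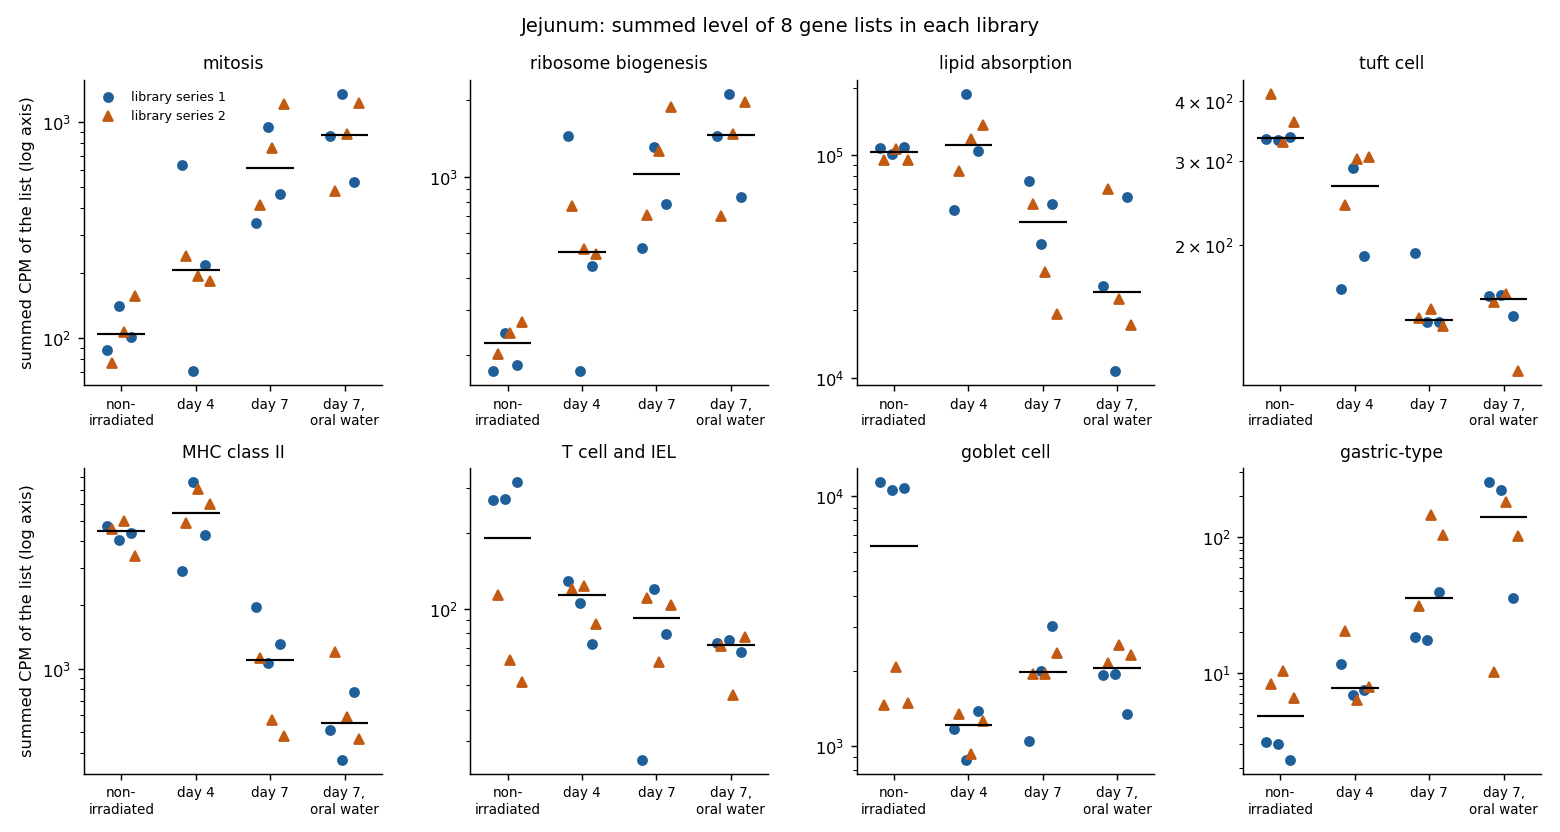
Summed CPM (log axis) of 8 gene lists in each jejunum library of the non-irradiated, day 4, day 7 and oral water day 7 groups; circles are library series 1, triangles series 2, and bars are group medians. Mitosis and ribosome biogenesis sums at day 7 lie above all non-irradiated libraries, lipid absorption, tuft cell and MHC class II sums lie below them, and goblet and T cell sums differ between the series before irradiation.

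Genes of cell division were higher in the day 7 libraries as a block. Of 26 mitosis genes 25 were tested and all 25 of those rose, by log2 1.21 to 3.63, with a median of 3.09 beside 0.02 for all genes. Summed, they were 76.6 to 157 CPM (median 104) without irradiation and 342 to 1209.5 CPM (median 610.5) at day 7, and no day 7 library overlapped the non-irradiated range. In bulk RNA, more dividing cells and more RNA per dividing cell cannot be told apart, and the same holds for every cell type below.

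Mki67, a protein that coats the chromosomes of cycling cells, was 11.5 to 26.4 CPM (median 14.3) without irradiation and 46.8 to 131 CPM (median 79.9) at day 7 (log2 fold change 2.36 ± 0.41, adjusted p = 1.2e-05). Ccnb1, the cyclin that drives entry into mitosis, was 0.985 to 6.52 CPM (median 3.02) and 15.1 to 75.2 CPM (median 34.8) (log2 fold change 3.63 ± 0.51, adjusted p = 5.8e-07). Its kinase partner Cdk1 rose from 3.06 to 24.5 CPM at the median, with a log2 fold change of 3.11 ± 0.49. The groups did not overlap for any of these 3. Cenpe, a motor that moves chromosomes at the kinetochore, rose by log2 3.63 ± 0.50, Top2a, which untangles replicated DNA, by 3.09 ± 0.48, and Cdc20, the activator of the anaphase-promoting complex, by 3.45 ± 0.52. Prc1, which bundles the central spindle, changed least of the list at log2 1.21 ± 0.31, and its groups overlapped. Within series 1 23 of the 25 were called higher, and within series 2 25.

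DNA replication genes moved with them. Of 30 genes 29 were tested, 28 rose and 1 did not pass the test, with a median log2 of 2.48. Rrm2, the subunit of ribonucleotide reductase that limits the supply of DNA building blocks, was 0.985 to 3.23 CPM (median 2.10) without irradiation and 11.5 to 119.9 CPM (median 49.9) at day 7 (log2 fold change 4.69 ± 0.58, adjusted p = 9.1e-08). Mcm5, part of the helicase that opens replication origins, was 1.21 to 4.51 CPM (median 2.94) and 12.6 to 66.7 CPM (median 27.5) (log2 fold change 3.40 ± 0.52, adjusted p = 2e-06). For both genes the lowest day 7 library still stood above the highest non-irradiated one. Ccne1, the cyclin of entry into S phase, rose by log2 4.26 ± 0.59, Tk1, a thymidine salvage enzyme, by 3.48 ± 0.50, and Pcna, the sliding clamp, by 1.27 ± 0.28.

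Cell cycle genes are known to be switched by promoter elements, and because these members moved together their promoters were searched for those letters. The windows are RefSeq promoters of 300 bases on rat build GRCr8 (250 bases before to 50 after the start), a newer build than the one the counts were made on, and both strands were searched. The CHR element (cell cycle genes homology region; letters TTTGAA or TTCGAA) bears on G2 and mitosis genes. It stood in 15 of the 21 mitosis genes that have a window and in 13.6% of the 9743 tested genes that have one. The CCAAT box (letters CCAAT) stood in 17 of the same 21 and in 15 of the 23 DNA replication genes with a window, against 38.0% of tested genes. The E2F site (letters TTTCCCGC or TTTGGCGC), the element of S phase genes, stood in 10 of the 23 DNA replication genes with a window, in 0 of the 21 mitosis genes and in 3.05% of tested genes. A match is a description of the sequence, not a shown binding site, and other forms of these elements were not searched.

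Not every promoter of these lists holds them: the windows of Pcna and Cdc45 had 0 E2F matches, and that of Ccnb1 had CCAAT boxes but no CHR. The promoters of 3 mitosis genes and of a pair of replication genes are printed as examples that do hold the elements. Each line gives the 150 bases before the start, 5′ to 3′ on the strand of the gene, and capitals mark the CHR and CCAAT letters on either strand in the first 3 and the E2F letters in the last pair. In Mki67 a CHR and a CCAAT box on the other strand overlap and share their capitals. The positions are chr5:137255800-137255949, minus strand for Cdc20, chr20:19265143-19265292, plus strand for Cdk1, chr1:199952594-199952743, minus strand for Mki67, chr19:13488663-13488812, plus strand for Mcm5 and chr13:42404353-42404502, minus strand for Mcm6.
Cdc20: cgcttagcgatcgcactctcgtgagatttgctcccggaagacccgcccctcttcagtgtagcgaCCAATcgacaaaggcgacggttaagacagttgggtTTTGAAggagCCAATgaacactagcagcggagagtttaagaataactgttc
Cdk1: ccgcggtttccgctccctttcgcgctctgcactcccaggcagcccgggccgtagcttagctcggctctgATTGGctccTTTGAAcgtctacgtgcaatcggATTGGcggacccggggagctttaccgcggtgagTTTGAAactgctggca
Mki67: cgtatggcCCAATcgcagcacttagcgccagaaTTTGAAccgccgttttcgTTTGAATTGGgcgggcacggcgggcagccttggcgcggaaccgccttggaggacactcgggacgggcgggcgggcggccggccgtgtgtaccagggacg
Mcm5: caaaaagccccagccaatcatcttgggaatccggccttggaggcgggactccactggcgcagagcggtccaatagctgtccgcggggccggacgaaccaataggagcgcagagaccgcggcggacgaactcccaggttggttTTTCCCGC
Mcm6: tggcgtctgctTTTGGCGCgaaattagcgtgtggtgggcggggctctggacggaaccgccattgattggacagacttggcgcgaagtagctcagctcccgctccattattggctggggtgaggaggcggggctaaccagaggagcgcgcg

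Genes that build ribosomes rose as uniformly as those of mitosis. Of 20 genes 19 were tested and all 19 were called higher, by log2 1.37 to 3.06 with a median of 2.53. Myc, the transcription factor that drives ribosome production in growing cells, was 1.06 to 4.16 CPM (median 2.13) without irradiation and 7.38 to 29.5 CPM (median 12.3) at day 7 (log2 fold change 2.54 ± 0.49, adjusted p = 4.8e-05). Ncl, nucleolin, was 30.8 to 58.4 CPM (median 44.0) and 106 to 464 CPM (median 235), a log2 fold change of 2.54 ± 0.39. Npm1, nucleophosmin, rose by log2 2.37 ± 0.37, Fbl, the methylase of ribosomal RNA, by 2.78 ± 0.42, and Rrp12, which helps export both ribosomal subunits, by 3.06 ± 0.41. For each of these 5 genes the groups did not overlap. The E-box CACGTG, the letters that MYC is known to read, stood in 5 of 16 of these promoters against 9.43% of tested genes.

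Targets of p53 were called in both directions, at shares not far from those of all genes. p53 is the transcription factor that DNA damage activates, and it halts the cell cycle or starts cell death through its targets. Of 34 targets 32 were tested, 10 rose and 12 fell, and the median log2 was -0.02. Cdkn1a, the cell cycle inhibitor p21, was 184 to 281 CPM (median 244) without irradiation and 108 to 200.2 CPM (median 153) at day 7 (log2 fold change -0.61 ± 0.15, adjusted p = 0.0012), with groups that overlapped. Sesn1, a stress sensor, fell by log2 1.42 (84.5 to 152 CPM (median 102) against 23.7 to 50.7 CPM (median 42.9)), and Btg2, an antiproliferative factor, was 341 to 463 CPM (median 414) against 119 to 251 CPM (median 167) (log2 fold change -1.22 ± 0.23, adjusted p = 3.1e-05). Bbc3, the death protein PUMA, had a log2 fold change of -1.21 ± 0.20, with -0.60 in series 1 and -1.74 in series 2, which differed (adjusted p = 0.028). Mdm2, the ubiquitin ligase that removes p53, was 59.6 to 87.6 CPM (median 68.1) and 46.0 to 57.7 CPM (median 55.3) (log2 fold change -0.37 ± 0.15, adjusted p = 0.029), a call that was lost without replicate 1, 2 or 3 of the non-irradiated group or replicate 2 of the day 7 group.

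Another set of p53 targets stayed far above the non-irradiated level. Ccng1, cyclin G1, was 29.3 to 46.2 CPM (median 39.9) without irradiation and 71.8 to 227 CPM (median 169) at day 7 (log2 fold change 2.08 ± 0.22, adjusted p = 5.3e-09). Phlda3, an inhibitor of AKT signalling, was 0.0694 to 1.10 CPM (median 0.412) and 2.84 to 22.3 CPM (median 9.76) (log2 fold change 4.46 ± 0.57, adjusted p = 1.3e-07). Eda2r, a receptor of the TNF receptor family, had 0 counts over the 6 non-irradiated libraries and 389 at day 7, which is at least 89.7-fold higher against a floor of 3 counts over the group. Bounds and ratios of this kind cover counting error only. Gtse1, which is also a gene of G2 and mitosis, rose by log2 3.86 ± 0.48, and Tigar, which turns sugar towards antioxidant use, by 2.51 ± 0.42. Aen, a nuclease of apoptosis, rose by log2 1.24 ± 0.29. None of the 6 genes overlapped between the groups.

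Genes of crypt stem cells and of Wnt signalling, the pathway that maintains them, were mostly higher. Of 22 genes 20 were tested, 16 rose and 1 fell, with a median log2 of 1.83. Axin2, the standard Wnt target, was 3.71 to 9.22 CPM (median 8.04) without irradiation and 18.7 to 35.1 CPM (median 25.2) at day 7 (log2 fold change 1.78 ± 0.18, adjusted p = 1.8e-09). Olfm4, a secreted marker of rapidly cycling crypt base cells in several species, was 5.60 to 33.0 CPM (median 9.85) and 45.8 to 312 CPM (median 85.0) (log2 fold change 3.02 ± 0.84, adjusted p = 0.0028). The groups were apart for both. Smoc2, another crypt base marker, rose by log2 2.74 ± 0.54, Cd44, a Wnt-dependent adhesion receptor, by 3.34 ± 0.58, Prom1 by 2.67 ± 0.41, and Lrig1, a brake on growth factor receptors in stem cells, by 2.40 ± 0.36. Lgr4, a receptor for R-spondins, and Bmi1, a Polycomb subunit, rose by 1.33 ± 0.18 and 1.08 ± 0.13.

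The defining stem cell receptor did not follow this rule. Lgr5 was 0.142 to 0.625 CPM (median 0.482) without irradiation and 0.217 to 2.29 CPM (median 0.773) at day 7, a log2 fold change of 0.99 ± 0.49 that did not pass the test (adjusted p = 0.08). Ascl2, the transcription factor of the Lgr5 state, rose by 1.72 ± 0.56 from 0.220 to 1.19 CPM at the median, with overlapping groups. Sox9, a factor of crypt progenitors, was 0.731 to 5.48 CPM (median 1.96) and 3.36 to 15.3 CPM (median 7.28) (log2 fold change 1.89 ± 0.49, adjusted p = 0.0015). Hopx, often used for slowly cycling crypt cells and also expressed on villi, was the gene of the list that fell, by log2 0.99 (78.5 to 291 CPM (median 153) against 58.6 to 108 CPM (median 89.2)). That difference was -0.14 in series 1 and -1.64 in series 2.

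Injured gut epithelium can return for a time to a fetal-like state, marked in mice by Ly6 family and annexin genes. Of 31 genes of such a state 21 were tested, 9 rose and 4 fell, with a median of 0.49. Within series 1 4 rose and 4 fell, and within series 2 12 rose and 2 fell. Ly6al, a rat member of the Ly6 family of surface proteins, had one of the largest fold changes of all genes: 0.486 to 1.04 CPM (median 0.587) without irradiation and 83.7 to 1855 CPM (median 491) at day 7 (log2 fold change 9.99 ± 0.85, adjusted p = 5.3e-11). The lowest irradiated library lay far above the highest non-irradiated one. Ly6i, a relative, was 0 to 0.183 CPM (median 0) and 1.51 to 5.52 CPM (median 2.36) (log2 fold change 5.87 ± 0.77, adjusted p = 2e-07). Il33, an alarm cytokine of damaged epithelium, was 3.26 to 12.1 CPM (median 7.09) and 13.1 to 114 CPM (median 85.1) (log2 fold change 3.29 ± 0.42, adjusted p = 1.4e-07), with a larger difference in series 2 (4.48) than in series 1 (2.20; adjusted p of the difference = 0.021).

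Other members of that state were uneven. Clu, clusterin, which marks revival stem cells in mice, was 0.152 to 1.58 CPM (median 1.19) and 1.04 to 39.9 CPM (median 13.4) (log2 fold change 3.71 ± 0.90, adjusted p = 0.00073), with groups that overlapped. Anxa1 was 0.227 to 3.23 CPM (median 1.18) and 0.266 to 8.91 CPM (median 3.64) and did not pass the test (adjusted p = 0.16). Ereg, epiregulin, a growth factor for the EGF receptor, rose by log2 1.34 ± 0.22, while its relative Areg, amphiregulin, was 12.8 to 32.6 CPM (median 23.9) and 16.4 to 39.6 CPM (median 32.3) with no call (adjusted p = 0.23). Cldn4, a tight junction protein in the same list, fell, from 1211 to 1825 CPM (median 1670.0) to 191 to 770.0 CPM (median 368) (log2 fold change -1.96 ± 0.41, adjusted p = 0.00015). Emp1, an epithelial membrane protein, fell by log2 0.83.

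Gastric-type genes appeared at low levels. Of 15 genes of the stomach lining and the duodenum 10 were tested and 9 rose, with a median log2 of 6.04, or 5.50 with the gene at 0 set at its bound. Summed, they were 2.29 to 10.3 CPM (median 4.81) and 17.4 to 146 CPM (median 35.4), and the day 7 values were highest in replicates 5 and 6. When only the 12 libraries were fitted, fewer genes passed the filter on low counts and 1 of them was called. A gene near 0 without irradiation could pass that filter only through irradiated libraries, those of the drug and water groups included. For such genes, being tested thus already depended on a level reached after irradiation. The 9 of 10 and the median therefore cannot be read against the values of all genes, and the levels are given as description. Tff1, a trefoil peptide of gastric surface mucus, was 0 to 0.227 CPM (median 0.0310) and 0.232 to 53.5 CPM (median 9.29) (log2 fold change 7.96 ± 1.43, adjusted p = 2.1e-05). Anxa10, an annexin of gastric epithelium, held 3 counts over the non-irradiated libraries and 2641 at day 7, a ratio of 609 (95% interval 208 to 2954). Gkn2, a gastrokine, gave a ratio of 184 (95% interval 50.6 to 1519.8) and Tff2, the trefoil peptide of mucous neck and Brunner's glands, of 106 (95% interval 29.0 to 877). Pdx1, the transcription factor of duodenum and antrum, was 1.27 to 8.87 CPM (median 2.61) and 9.04 to 14.2 CPM (median 12.9) (log2 fold change 1.60 ± 0.44, adjusted p = 0.0025). Lipf, gastric lipase, is in none of the lists but was among the 10 largest rises: 0 counts without irradiation and 798 at day 7, at least 184-fold higher.

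**Figure D2:**
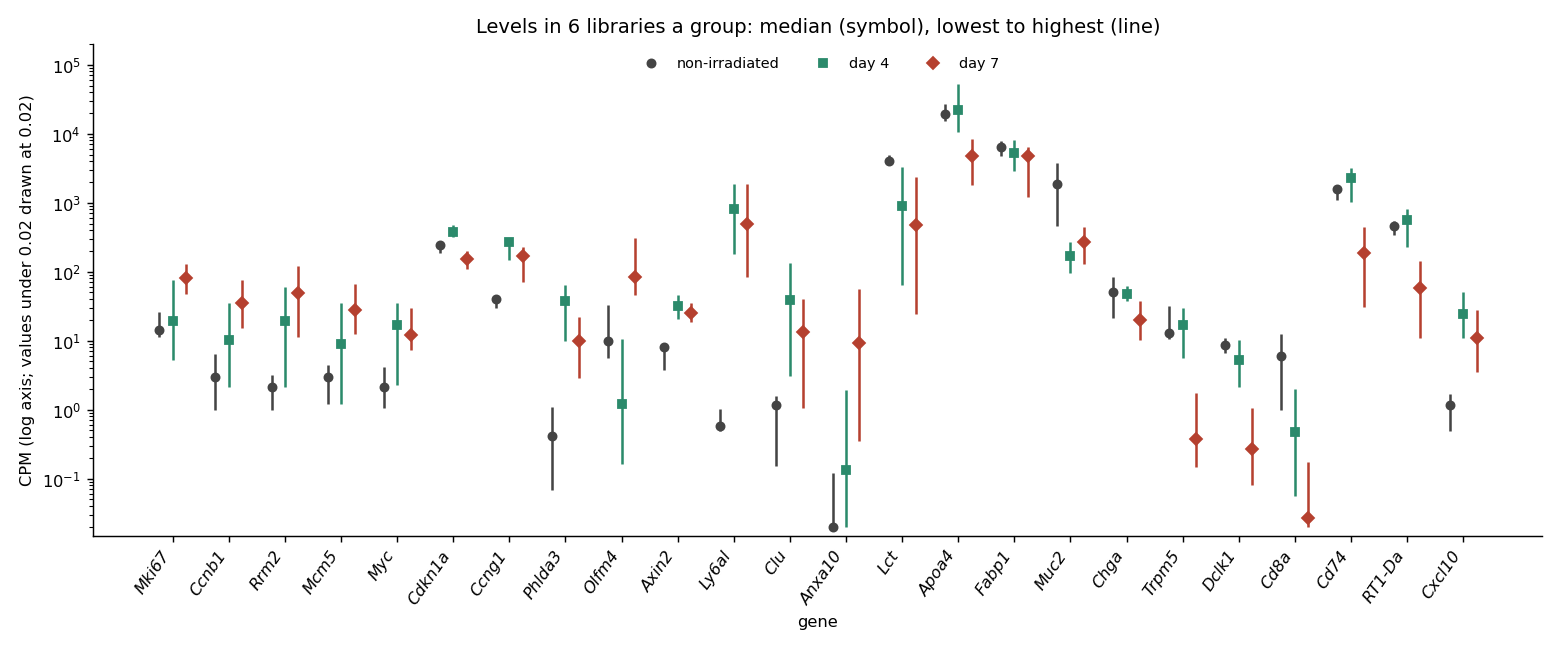
Levels of 24 genes (CPM, log axis) in the non-irradiated, day 4 and day 7 groups; symbols are medians of 6 libraries and lines run from the lowest to the highest library. Mki67, Ccnb1, Rrm2 and Mcm5 have their highest medians at day 7, Ly6al and Phlda3 are raised at both days, and Trpm5, Dclk1 and Cd74 are lowest at day 7.

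Absorptive genes were lower, and unevenly so. Of 31 genes of brush border digestion and of sugar and peptide uptake, all tested, 15 fell and 1 rose, with a median log2 of -0.93. Without replicate 6 of the day 7 group 9 fell. Within series 1 1 fell and within series 2 12. Lct, lactase, was 3641 to 4884 CPM (median 4051) without irradiation and 24.5 to 2348 CPM (median 482) at day 7 (log2 fold change -2.91 ± 1.05, adjusted p = 0.018), and the irradiated libraries were widely spread. Alpi, the alkaline phosphatase of the brush border, was 6097 to 7759 CPM (median 6846) and 570.1 to 3774 CPM (median 1823) (log2 fold change -1.92 ± 0.45, adjusted p = 0.00048). For both genes every day 7 library lay below the non-irradiated range. Slc2a2, the basolateral sugar carrier GLUT2, fell by log2 1.76 (655 to 1224 CPM (median 813) against 82.7 to 463 CPM (median 293)). Cdhr2 and Cdhr5, the protocadherins that link microvilli, and Espn, which bundles their actin, fell by log2 1.16, 1.07 and 0.98, with groups apart for each.

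Not every enterocyte gene passed the test. Si, sucrase-isomaltase, was 3468 to 7874 CPM (median 5748) and 875 to 4592 CPM (median 3411) (adjusted p = 0.18). Slc5a1, the sodium-glucose carrier SGLT1, was 1124 to 4808 CPM (median 2437) and 678 to 1870.4 CPM (median 1654) (adjusted p = 0.08). Fabp1, a fatty acid carrier of the cytosol, was 4804 to 7912 CPM (median 6384) and 1223 to 6527 CPM (median 4754) (adjusted p = 0.24). Vil1, the villus actin bundler, Anpep, an aminopeptidase, and Slc15a1, the peptide carrier, had log2 fold changes of -0.58, -0.31 and -0.58 without a call. The only member that rose was Slc1a1, a carrier of acidic amino acids, at 0.709 to 1.97 CPM (median 1.09) against 1.54 to 4.08 CPM (median 2.60) (log2 fold change 1.13 ± 0.34, adjusted p = 0.0056).

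Fat handling fell further for some steps than for others. Of 24 genes 23 were tested, 15 fell and 0 rose, with a median log2 of -0.93 (within series 1, 4 lower, and within series 2, 10). Their sum was 94383 to 108052 CPM (median 103195) without irradiation and 19234 to 76600.1 CPM (median 49772) at day 7, with no overlap. Apoa4, an apolipoprotein of chylomicrons, was 15157 to 27202 CPM (median 19187) and 1778 to 8318 CPM (median 4823) (log2 fold change -2.11 ± 0.44, adjusted p = 0.00015). Scarb1, a receptor for lipoproteins and cholesterol, was 672 to 963 CPM (median 819) and 76.1 to 223 CPM (median 135) (log2 fold change -2.59 ± 0.26, adjusted p = 2e-09), with similar values in series 1 (-2.31) and series 2 (-2.90). Apoa1 fell by log2 1.37 and Apoc3 by 2.42, each with groups apart. Npc1l1, which takes up dietary cholesterol, Gpat3 and Dgat2, which build triglyceride, fell by 1.15, 1.17 and 0.93. Mttp, which loads lipid onto apolipoprotein B, and Apob itself were 1732 to 5124 CPM (median 3636) and 2209 to 8294 CPM (median 5105) at day 7 against 3728 to 5292 CPM (median 4658) and 7970.2 to 9785 CPM (median 8848), with no call for either.

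Of 27 vitamin, mineral and bile acid genes 23 were tested, 6 rose and 5 fell (2 lower within series 1, 6 within series 2), which is no more than the shares of all genes. Bco1, which splits beta-carotene into vitamin A, was 429 to 1068 CPM (median 811) without irradiation and 23.4 to 147 CPM (median 54.8) at day 7 (log2 fold change -3.54 ± 0.61, adjusted p = 1.2e-05). S100g, the calcium carrier calbindin-D9k, was 86.4 to 454 CPM (median 154) and 11.6 to 30.3 CPM (median 21.1) (log2 fold change -3.39 ± 0.40, adjusted p = 3.3e-08). Iron genes moved in opposite directions: Tfrc, the transferrin receptor, was 7.00 to 20.7 CPM (median 13.6) and 102 to 224 CPM (median 151) (log2 fold change 3.57 ± 0.38, adjusted p = 4.9e-09), and Fth1, the heavy chain of ferritin, was 8716 to 18224 CPM (median 10189) and 1668 to 6684 CPM (median 3493) (log2 fold change -1.77 ± 0.35, adjusted p = 7.4e-05). The groups were apart for all 4 genes.

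The bile acid hormone gene Fgf19 gave the largest fitted fold change among genes with a mean of 5 CPM or more in either group. Fgf19, listed for rat also as Fgf15, is the ileal signal that bile acids induce through the receptor FXR. It held 1 count over the 6 non-irradiated libraries and 2127 at day 7, a ratio of 1471 (95% interval 264 to 58116). By library it was 0.811 to 80.0 CPM (median 4.06) at day 7. Nr1h4, which encodes FXR, rose by log2 1.02 ± 0.22, and Slc10a2, the ileal bile acid carrier, was 0.993 to 3.62 CPM (median 2.42) and 3.64 to 8.10 CPM (median 5.54) (log2 fold change 1.31 ± 0.34, adjusted p = 0.0015). Other genes of this circuit did not pass the test: Nr0b2, the FXR-induced repressor SHP, was 14.9 to 33.0 CPM (median 21.6) and 5.73 to 53.1 CPM (median 23.8) (adjusted p = 0.97), Slc51b, a bile acid exporter, 84.5 to 138 CPM (median 106) and 54.2 to 237 CPM (median 140.5) (adjusted p = 0.47), and Fabp6, the ileal bile acid binding protein, 0.0636 to 8.75 CPM (median 0.620) and 0.703 to 16.4 CPM (median 6.44) (adjusted p = 0.25). Slc22a7, an organic anion carrier, had the largest fall by the same rule, from 3.43 to 18.1 CPM (median 9.33) to 0 to 0.290 CPM (median 0.0699) (log2 fold change -7.14 ± 0.90, adjusted p = 1.1e-07), and the series differed (-4.66 and -9.59, adjusted p = 0.046).

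Genes of cell contacts and of salt and water movement also split. Of 20 tight junction and adhesion genes 18 were tested, 10 fell and 2 rose, or 1 without replicate 5 or 6 of the day 7 group or replicate 4, 5 or 6 of the non-irradiated group. Cldn7, a sealing claudin, fell by log2 1.00 (1547 to 2006 CPM (median 1615) against 658 to 1184 CPM (median 824)), whereas Cldn2, the claudin that forms a pore for sodium and water, was 13.0 to 23.3 CPM (median 17.6) without irradiation and 63.3 to 469 CPM (median 262) at day 7 (log2 fold change 3.88 ± 0.41, adjusted p = 3.9e-09). The zonula occludens gene Tjp1 had a log2 fold change of 0.02 without a call. Of 28 ion and water genes 21 were tested, 5 rose and 10 fell, a count that dropped to between 4 and 6 without replicate 2, 5 or 6 of the day 7 group or replicate 4 or 6 of the non-irradiated group. Within series 1, 2 of them fell, and within series 2, 7. Slc12a2, the chloride loader of crypt secretion, was 5.83 to 22.6 CPM (median 11.4) and 44.0 to 279 CPM (median 94.2) (log2 fold change 3.03 ± 0.46, adjusted p = 2.2e-06), and Kcnq1, the potassium channel that supports it, rose by 1.99 ± 0.35. Aqp7, a glycerol and water channel, fell by log2 1.67, and Aqp1, a water channel, by 2.03. Cftr, the chloride channel, was 100.2 to 171 CPM (median 133) and 103 to 148 CPM (median 110.2), with no call (adjusted p = 0.17).

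**Figure D3:**
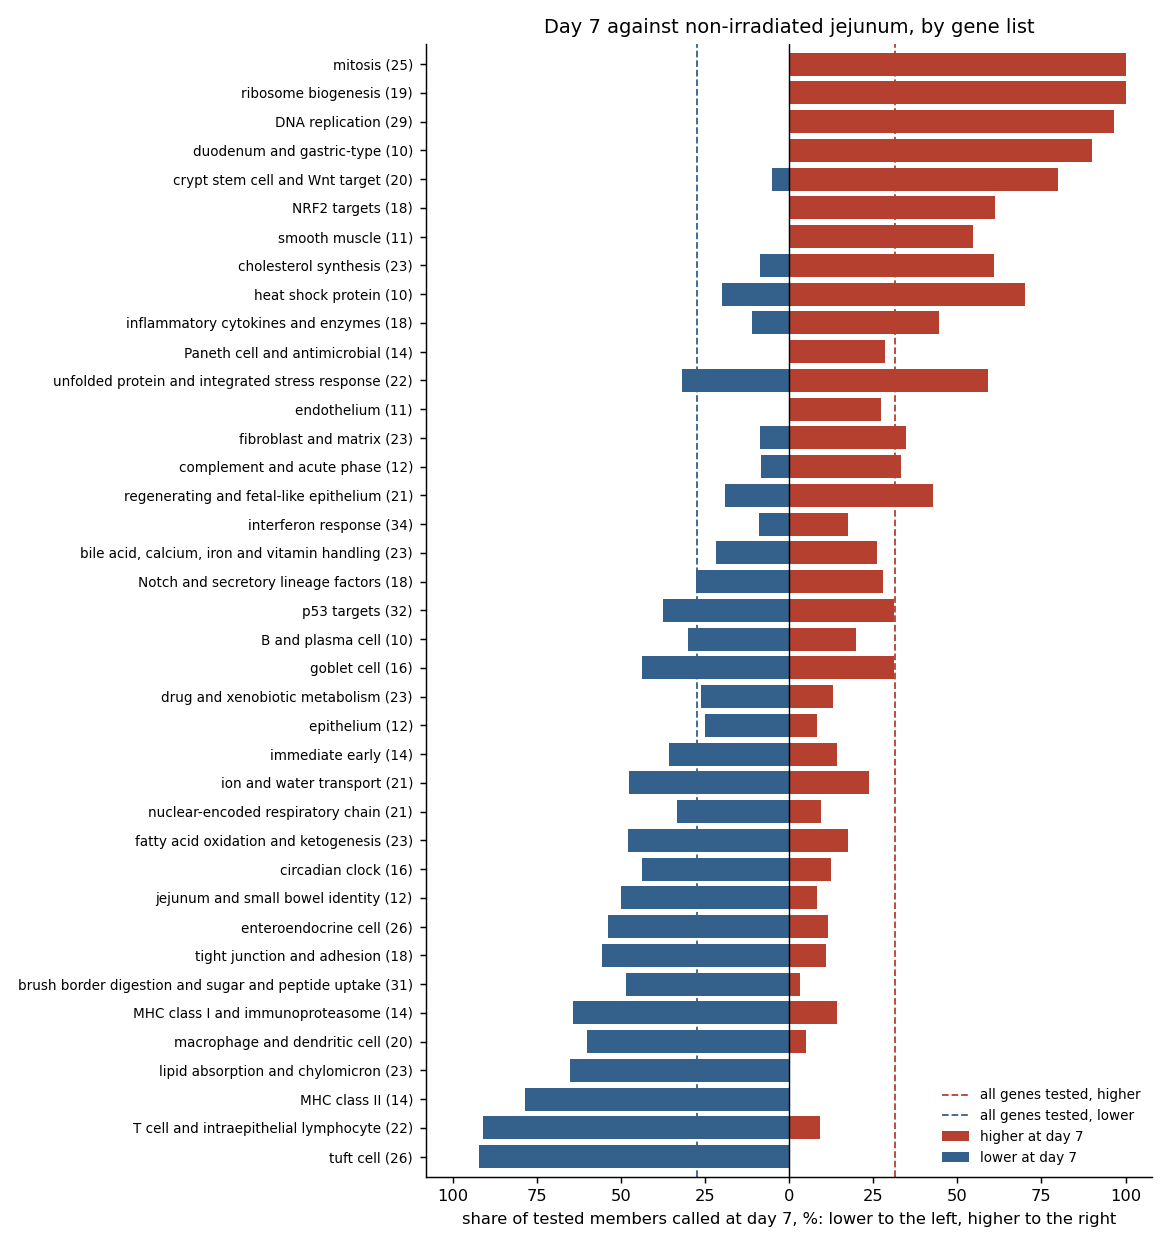
Share of the tested members of each gene list called higher (right, red) or lower (left, blue) at day 7 against non-irradiated jejunum; numbers in brackets are genes tested, and dashed lines mark the shares over all 12501 genes (31.4 percent higher, 27.4 percent lower). Mitosis, ribosome biogenesis and DNA replication were higher for the whole list or all but 1 gene, and tuft cell and T cell genes lower for all but 2 genes each.

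Transcripts of tuft cells, rare chemosensory cells that detect parasites and metabolites and signal to immune cells, were lower almost throughout the list. Of 30 genes 28 were found and 26 tested, 24 fell and 0 rose, with a median log2 of -2.68. The counts lower were 21 within series 1 and 19 within series 2. A member near 0 at day 7 could pass the filter on low counts only through libraries of other groups. The counts and the median of this list are therefore given as description. Trpm5, the cation channel of tuft cell taste signalling, was 10.5 to 31.6 CPM (median 12.9) without irradiation and 0.149 to 1.74 CPM (median 0.374) at day 7 (log2 fold change -4.92 ± 0.53, adjusted p = 5.3e-09). Gnat3, its G protein gustducin, was 4.09 to 7.31 CPM (median 4.92) and 0 to 0.0994 CPM (median 0.0424) (log2 fold change -6.87 ± 0.65, adjusted p = 4.3e-10). Pou2f3, the master transcription factor of the lineage, was 1.83 to 4.47 CPM (median 2.55) and 0.0497 to 0.464 CPM (median 0.229) (log2 fold change -3.47 ± 0.50, adjusted p = 7.8e-07), and Dclk1, the classic marker, 6.74 to 11.0 CPM (median 8.71) and 0.0809 to 1.04 CPM (median 0.265) (log2 fold change -4.34 ± 0.52, adjusted p = 3.8e-08). In all 4 the highest irradiated library lay below the lowest non-irradiated one.

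Receptors and effectors of these cells were lower as well. Sucnr1, the succinate receptor, held 157 counts without irradiation and 0 at day 7, which is at least 75.7-fold lower. Chat, which makes acetylcholine, went from 102 counts to 1, a ratio of 148 (95% interval 25.9 to 5883). Rgs13, a regulator of G proteins, fell by log2 4.79, and Ltc4s and Alox5ap, both of leukotriene synthesis, by 2.96 and 3.37. Avil, advillin, another tuft marker, did not pass the test (12.6 to 24.8 CPM (median 16.5) and 10.2 to 44.5 CPM (median 12.6), adjusted p = 0.67), nor did Inpp5d. Plek and Siglec5, genes best known from blood cells, were among the 10 largest falls: Plek from 19.3 to 29.3 CPM (median 25.5) to 0.202 to 0.985 CPM (median 0.477) (log2 fold change -5.55 ± 0.45, adjusted p = 1.5e-11) and Siglec5 from 4.08 to 6.82 CPM (median 4.36) to 0.0370 to 0.232 CPM (median 0.0940) (log2 fold change -5.54 ± 0.49, adjusted p = 1.1e-10).

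Goblet cells, which secrete the mucus, cannot be described without the library series. Over both series 16 of 23 genes were tested, 5 rose and 7 fell. Within series 1 2 rose and 8 fell, within series 2 6 rose and 1 fell, and the series differed for 8 of the 16, against 10.7 percent of all genes. Muc2, the gel-forming mucin, was 3136 to 3737 CPM in the non-irradiated libraries of series 1, 460.2 to 569 CPM in those of series 2, and 128 to 446 CPM (median 271) at day 7. Its log2 fold change was -3.75 in series 1 and -0.85 in series 2, which differed (adjusted p = 0.0026). Tff3, the goblet trefoil peptide, gave -2.53 and 0.15 (adjusted p of the difference = 0.0037), Fcgbp, a mucus cross-linker, -2.54 and 0.23 (0.0082), and Agr2, a chaperone of mucin folding, -0.80 and 2.80 (0.0082). Spink4, a peptide of goblet cells, rose in both (2.12 and 3.62). Atoh1, the factor that commits cells to a secretory fate, had -2.11 in series 1 and 0.93 in series 2 (adjusted p of the difference = 0.0034).

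Most Paneth cell and antimicrobial genes tested did not pass the test. Of 26 genes 14 were tested, 4 rose and 0 fell. The Paneth defensins Defa6, Defa8 and Defa24 were not called (adjusted p = 0.62, 0.69 and 0.22). Lyz2, a lysozyme also made by macrophages, was 25.2 to 131 CPM (median 46.8) and 21.1 to 128 CPM (median 36.6) (adjusted p = 0.73). Lcn2, lipocalin-2, which withholds iron from bacteria, was 0.0636 to 0.355 CPM (median 0.235) and 1.74 to 23.9 CPM (median 18.2) (log2 fold change 5.90 ± 0.69, adjusted p = 3.1e-08). Pla2g2a, a Paneth cell phospholipase that kills Gram-positive bacteria, was 4.38 to 24.8 CPM (median 6.92) and 28.3 to 471 CPM (median 265) (log2 fold change 4.55 ± 0.98, adjusted p = 0.0002). S100a9, a subunit of calprotectin, held 0 counts without irradiation and 420 at day 7, at least 96.8-fold higher. Reg3g, a lectin against bacteria, spanned 115 to 2617 CPM (median 269) and 573 to 6121 CPM (median 1575), which overlapped and did not pass the test (adjusted p = 0.072). The fourth gene called, Reg1a, lost its call without replicate 3 of the day 7 group.

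Genes of enteroendocrine cells were lower as a list mainly in series 1, while their earliest factor was higher. Of 30 genes 26 were tested, 14 fell and 3 rose (15 and 3 within series 1, 6 and 4 within series 2). The median log2 was -1.14 within series 1 and -0.18 within series 2, where the share lower was near that of all genes. In series 2 the list summed to 214 to 340 CPM without irradiation and 259 to 451 CPM at day 7. Gip, the incretin of K cells, was 40.7 to 164 CPM (median 105) without irradiation and 9.06 to 38.8 CPM (median 19.2) at day 7 (log2 fold change -2.33 ± 0.42, adjusted p = 2.5e-05). Cck, cholecystokinin, was 28.2 to 99.4 CPM (median 62.7) and 8.84 to 25.0 CPM (median 17.1) (log2 fold change -1.91 ± 0.27, adjusted p = 8.1e-07). Nts, neurotensin, fell by log2 2.56 and Sst, somatostatin, by 1.87, each with overlapping groups, and Chga, chromogranin A, the general granule protein, was 21.2 to 84.2 CPM (median 51.1) and 10.2 to 37.4 CPM (median 20.0) (log2 fold change -1.33 ± 0.36, adjusted p = 0.002). Neurog3, the transient factor that starts the lineage, was 0 to 0.372 CPM (median 0.138) and 0.488 to 2.77 CPM (median 1.18) (log2 fold change 3.09 ± 0.69, adjusted p = 0.00033). Ddc, which completes serotonin synthesis and is also made by enterocytes, rose by log2 3.25 ± 0.35, whereas Tph1, which starts that synthesis, had -1.61 in series 1 and 0.53 in series 2 (adjusted p of the difference = 0.0019). Among Notch pathway genes, which set the balance of absorptive and secretory fates (18 of 20 tested, 5 higher, 5 lower), the receptor Notch3 rose by log2 2.31 ± 0.50, the ligand Dll1 fell by 1.59 (-0.82 in series 1 and -2.45 in series 2), and the target Hes1 was 31.8 to 43.9 CPM (median 39.8) and 26.6 to 40.3 CPM (median 36.7) with no call (adjusted p = 0.24).

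T cell genes had the lowest median of all lists tested with 10 or more genes. Of 35 genes 30 were found and 22 tested, 20 fell and 2 rose. The median log2 was -4.0 (-4.55 in series 1 and -2.62 in series 2). A gene near 0 at day 7 could pass the filter on low counts only through libraries of other groups. For such genes, being tested already depended on a level outside day 7. The 20 of 22 and the median therefore cannot be read against the values of all genes. Cd8a, a coreceptor of killer T cells and intraepithelial lymphocytes, was 0.993 to 12.5 CPM (median 6.10) without irradiation and 0 to 0.174 CPM (median 0.0271) at day 7 (log2 fold change -6.79 ± 0.79, adjusted p = 2.9e-08). Cd3e, which signals for the T cell receptor, was 0.213 to 6.89 CPM (median 3.81) and 0 to 0.149 CPM (median 0.0733) (log2 fold change -5.76 ± 0.80, adjusted p = 5.5e-07). Ccl5, a chemokine of cytotoxic lymphocytes, was 3.75 to 27.3 CPM (median 16.4) and 0.0404 to 1.24 CPM (median 0.190) (log2 fold change -5.61 ± 0.66, adjusted p = 3.5e-08). The groups were apart for all 3, although the non-irradiated libraries of series 2 stood far below those of series 1: Cd8a was 0.993 to 1.97 CPM there and 10.2 to 12.5 CPM in series 1.

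Cytotoxic genes fell with them: Gzma, a granzyme, by log2 5.25, Gzmf by 5.58, and Prf1, perforin, by 4.93. Gimap4 and Gimap7, GTPases of lymphocyte survival, fell by 5.25 and 5.67, and Cd7 by 5.26. Ptprc, the CD45 molecule of all white blood cells, fell by 3.84. The members that rose were Eomes, a transcription factor of effector T and NK cells, from 0.0318 to 1.64 CPM at the median, and Cd3g, a further chain of the receptor complex. Cd3g was 5.61 to 8.26 CPM (median 7.35) and 12.1 to 111 CPM (median 77.1) (log2 fold change 3.35 ± 0.40, adjusted p = 4.4e-08), against the direction of Cd3e and Cd3d (-3.66). The list's sum at day 7, 25.3 to 119.9 CPM (median 91.7), therefore holds much Cd3g, and it overlapped the non-irradiated sums of series 2. In the RefSeq table of build GRCr8, Cd3g lies between Cd3d and Ube4a, a ubiquitin ligase gene with a log2 fold change of 0.20. Whether the counting kept strands apart is not given, and the part of reads from neighbouring transcripts in the Cd3g values was not tested.

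Other white blood cells were seen less clearly. Of 28 macrophage and dendritic cell genes 20 were tested, 12 fell and 1 rose, but 7 fell without replicate 1 or 2 of the non-irradiated group and 4 in a fit of the 12 libraries alone. Within series 1 0 rose and 13 fell, within series 2 7 rose and 2 fell, and the series differed for 12 genes. Tyrobp, a signalling adaptor of myeloid and NK cells, fell in both (-4.09 and -1.48), while C1qa, a complement subunit of tissue macrophages, gave -2.71 and 1.65 (adjusted p of the difference = 0.0062). Xcr1 and Clec9a, markers of cross-presenting dendritic cells, were under the filter and held 96 and 103 counts over the non-irradiated libraries against 2 and 3 at day 7. Cd14, a receptor for bacterial lipopolysaccharide, was the gene that rose (0.0636 to 0.486 CPM (median 0.131) and 1.27 to 9.17 CPM (median 1.87)). Of 25 B and plasma cell genes 10 were tested, 2 higher and 3 lower. Without the filter on low counts 10 genes of that list were called lower. In a fit of the 12 libraries alone 1 was higher. Ighm, the IgM heavy chain, was 3.55 to 19.9 CPM (median 12.9) and 0.355 to 5.42 CPM (median 1.22) (log2 fold change -2.80 ± 0.71, adjusted p = 0.0012). Of 17 neutrophil genes 5 were tested, 2 higher and 2 lower, and 4 were lower without the filter on low counts. Padi4 and S100a9 were higher, Mmp9 and Csf3r lower, the last not without replicate 4 of the non-irradiated group.

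MHC class II genes fell together. Of 15 genes 14 were tested, 11 fell and 0 rose, with a median log2 of -1.78, and the counts were 6 within series 1 and 10 within series 2. The list summed to 3400.0 to 4966 CPM (median 4480.2) without irradiation and 482 to 1945 CPM (median 1092) at day 7, with no overlap. Cd74, the invariant chain that guides class II molecules, was 1094 to 1728 CPM (median 1591) and 30.7 to 439 CPM (median 185) (log2 fold change -3.02 ± 0.49, adjusted p = 5.3e-06). RT1-Da, an alpha chain, was 339 to 536 CPM (median 456) and 11.1 to 144 CPM (median 58.4) (log2 fold change -2.88 ± 0.51, adjusted p = 1.6e-05), and RT1-Ba, another, was 134 to 249 CPM (median 213) and 4.40 to 54.1 CPM (median 25.6) (log2 fold change -2.98 ± 0.57, adjusted p = 4.5e-05). Ctss, the protease that trims the invariant chain, fell by log2 1.88. Ciita, the factor that switches these genes on, was 4.70 to 11.0 CPM (median 8.26) and 1.58 to 9.16 CPM (median 6.89) and did not pass the test (adjusted p = 0.39). RT1 genes belong to families of near copies, so reads may be divided among them.

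The class II promoters hold a CCAAT box, part of their conserved enhancer, in 11 of 12 windows against 38.0% of tested genes, and the CHR letters in 0 of 12. The 150 bases before the start are shown for both alpha chains, with the CCAAT letters, read on the other strand as ATTGG, in capitals (chr20:4515265-4515414, plus strand for RT1-Da and chr20:4576907-4577056, plus strand for RT1-Ba, RefSeq, GRCr8).
RT1-Da: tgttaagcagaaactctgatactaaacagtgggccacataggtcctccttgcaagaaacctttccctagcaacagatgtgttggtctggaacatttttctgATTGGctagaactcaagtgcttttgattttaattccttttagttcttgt
RT1-Ba: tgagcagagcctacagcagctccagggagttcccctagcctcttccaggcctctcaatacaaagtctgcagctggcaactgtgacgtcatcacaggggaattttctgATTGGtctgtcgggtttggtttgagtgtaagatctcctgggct

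MHC class I, which presents to killer T cells, fell as well, more clearly in series 2. Of 18 genes of class I and its loading machinery 14 were tested, 9 fell and 2 rose (3 and 3 within series 1, 11 and 2 within series 2). B2m, the light chain, was 3875 to 5945 CPM (median 4244) and 578 to 2719 CPM (median 1339.5) (log2 fold change -1.79 ± 0.35, adjusted p = 5.4e-05). Tap2, a peptide pump, gave -0.46 in series 1 and -2.39 in series 2 (adjusted p of the difference = 0.029). Calr and Pdia3, chaperones of the endoplasmic reticulum, were the members that rose, by log2 0.71 ± 0.14 and 0.76 ± 0.16.

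Few interferon response genes were called at day 7. Of 39 genes 34 were tested, 6 rose and 3 fell, with a median log2 of 0.15. The chemokines Cxcl10 and Cxcl9, which attract T cells, were exceptions. Cxcl10 was 0.486 to 1.72 CPM (median 1.17) without irradiation and 3.48 to 28.1 CPM (median 11.0) at day 7 (log2 fold change 3.33 ± 0.46, adjusted p = 4.3e-07), and Cxcl9 0 to 0.372 CPM (median 0.0318) and 0.580 to 13.9 CPM (median 3.65) (log2 fold change 5.47 ± 0.73, adjusted p = 2.8e-07). Mx2, an antiviral GTPase, rose by log2 2.60 ± 0.55, and Gbp4, a guanylate-binding protein, by 2.10 ± 0.48. Socs1, the feedback inhibitor of cytokine signalling, fell by 1.45. The groups were apart for the 4 genes that rose here.

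Inflammatory genes that epithelium can make were among those that rose. Of 30 inflammatory genes 18 were tested, 8 rose and 2 fell, and 4 rose in a fit of the 12 libraries alone. Duox2, the hydrogen peroxide generator of the epithelial surface, was 0.372 to 1.72 CPM (median 0.505) and 13.9 to 100.1 CPM (median 49.1) (log2 fold change 5.83 ± 1.03, adjusted p = 1.6e-05), and its maturation factor Duoxa2 was 0.278 to 2.67 CPM (median 1.07) and 2.96 to 21.1 CPM (median 11.4) (log2 fold change 3.04 ± 0.96, adjusted p = 0.0071). Nos2, the inducible nitric oxide synthase, was 0 to 0.254 CPM (median 0.0355) and 0.174 to 8.70 CPM (median 4.89) (log2 fold change 5.67 ± 1.28, adjusted p = 0.00034), with groups that overlapped. Il18, a cytokine that enterocytes store, rose by log2 1.19 ± 0.25. Ptgs2, which makes prostaglandins, fell by 3.15 (0.487 to 1.74 CPM (median 0.858) against 0 to 0.174 CPM (median 0.116)), and Il1b was 0.379 to 4.65 CPM (median 1.64) and 0.133 to 0.994 CPM (median 0.420) (log2 fold change -2.20 ± 0.64, adjusted p = 0.0038). Tnf did not pass the test (0.0609 to 0.191 CPM (median 0.147) and 0.0887 to 0.849 CPM (median 0.412), adjusted p = 0.11). Of 16 complement and acute phase genes 12 were tested, 4 higher and 1 lower, and Cd59, which protects cells from complement, was 19.7 to 31.5 CPM (median 22.6) and 145 to 425 CPM (median 323) (log2 fold change 3.60 ± 0.28, adjusted p = 9.1e-12).

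Calls of connective tissue genes came mostly from series 2. Of 27 fibroblast and matrix genes 23 were tested, 8 rose and 2 fell. Within series 1 1 rose and 3 fell, within series 2 19 rose and 1 fell, and the count of 8 became 5 without replicate 3 of the day 7 group or replicate 4, 5 or 6 of the non-irradiated group, and 13 without replicate 2 of the latter. The 2 that fell became 1 without replicate 2 of the day 7 group or replicate 1 or 2 of the non-irradiated group. With each library's mitochondrial share as a term 1 gene of the list was called higher. Col1a1, a chain of type I collagen, was 0.509 to 2.23 CPM in the non-irradiated libraries of series 1, 0 in each of those of series 2, and 0.576 to 4.65 CPM (median 2.39) at day 7, with no call over both (adjusted p = 0.16). Timp1, an inhibitor of matrix proteases, rose in both (2.26 and 2.95). Thbs1, thrombospondin 1, fell by log2 1.68 (48.3 to 90.3 CPM (median 58.4) against 11.4 to 33.4 CPM (median 19.7)). Of 13 smooth muscle genes 11 were tested, 6 higher and 0 lower (3 higher within series 1, 7 within series 2), with Myh11, the smooth muscle myosin, at 0.355 to 1.30 CPM (median 0.691) and 2.31 to 5.52 CPM (median 4.58). Of 14 endothelial genes 11 were tested and 3 were higher (0 within series 1, 8 within series 2, and 0 in a fit of the 12 libraries alone), which became 1 without replicate 3 of the day 7 group or replicate 4 or 6 of the non-irradiated group. The fibroblast list summed to 56.9 to 122 CPM (median 94.4) and 39.1 to 139 CPM (median 99.4), and the part of underlying tissue in these results was not tested.

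**Figure D4:**
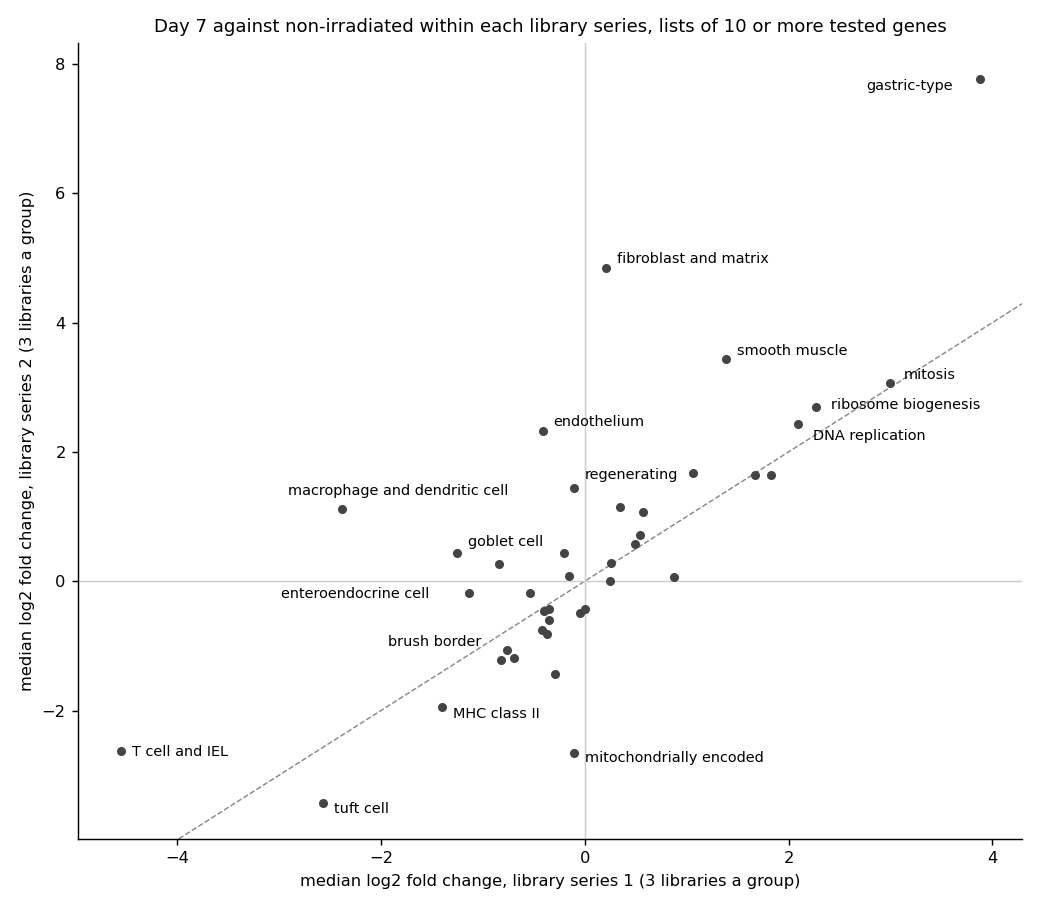
Median log2 fold change of day 7 against non-irradiated jejunum for each gene list, computed within library series 1 (x axis) and within series 2 (y axis), 3 libraries a group in each; the dashed line marks equal values. Mitosis, DNA replication, ribosome biogenesis, tuft cell, T cell and MHC class II medians have the same sign in both, while goblet, macrophage, regenerating and endothelial medians change sign and fibroblast and mitochondrially encoded medians are near 0 in series 1 only.

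Cholesterol synthesis genes were more often higher than lower. Of 24 cholesterol synthesis genes 23 were tested, 14 rose and 2 fell, with a median log2 of 0.57. None fell without replicate 2, 5 or 6 of the day 7 group, and 1 fell without replicate 3 of that group or replicate 4, 5 or 6 of the non-irradiated group. Idi1, an isomerase of the pathway, went from a median of 14.1 CPM (highest 18.5) without irradiation to 24.5 to 122 CPM (median 67.2) at day 7 (log2 fold change 2.41 ± 0.43, adjusted p = 2.1e-05). Sqle, squalene epoxidase, was 14.7 to 18.8 CPM (median 17.0) and 18.9 to 64.9 CPM (median 44.5), a log2 fold change of 1.35 ± 0.25. The groups did not overlap for either. A CCAAT box stood in 13 of 15 promoters of this list with a window, against 38.0% of tested genes. It stood in 3 of 16 ribosome biogenesis, 10 of 22 tuft cell and 5 of 23 T cell promoters. Among genes of the stress response list, Psat1, of serine synthesis, was 0.700 to 1.24 CPM (median 0.850) and 4.87 to 31.3 CPM (median 15.4) (log2 fold change 4.29 ± 0.52, adjusted p = 5.2e-08), and Phgdh, the first enzyme of that route, rose by 3.67 ± 0.47. Asns, asparagine synthetase, rose by 3.04 ± 0.36. These 3 are targets of ATF4, yet Atf4, Ddit3 and Trib3 of the same stress response fell, by log2 0.52, 1.19 and 1.15. Over the stress response list 22 of 23 genes were tested, 13 higher and 7 lower.

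Genes of fatty acid oxidation were lower more often than higher. Of 23 fatty acid oxidation and ketogenesis genes, all tested, 11 fell and 4 rose, and 7 fell without replicate 6 of the day 7 group. Within series 1, 2 fell, and within series 2, 8. Decr1 and Hadh, enzymes of beta-oxidation, fell by log2 1.41 and 1.26. Ppara, the nuclear receptor that drives the pathway, rose by 1.24 ± 0.28, and Cpt1a, the gate of fatty acids into mitochondria, by 0.75 ± 0.18. All 13 mitochondrially encoded genes fell over both series, with 0 called within series 1 and 13 within series 2. With each library's mitochondrial share as a term, 3 of the 13 were still called lower. The range of that share differs between the series before irradiation, and its part in this result was not tested further.

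Protective and heat shock genes were mostly higher. Of 21 NRF2 targets 18 were tested, 11 rose and 0 fell. DESeq2 called 2 lower, as did the fit without replicate 1 of the day 7 group, and 1 fell without replicate 3, 4 or 5 of that group or replicate 4 or 6 of the non-irradiated group. Gstp1, a glutathione transferase, was 191 to 434 CPM (median 276) without irradiation and 517 to 1209 CPM (median 1179) at day 7 (log2 fold change 1.90 ± 0.25, adjusted p = 2.5e-07), and Gsr, glutathione reductase, rose by log2 0.80 ± 0.13. Nqo1, a quinone reductase, was 2.31 to 7.80 CPM (median 5.45) and 4.29 to 178 CPM (median 41.6) (log2 fold change 3.38 ± 0.62, adjusted p = 2.7e-05), with overlapping groups. Hmox1, heme oxygenase, did not pass the test (adjusted p = 0.062). Of 12 heat shock genes 10 were tested, 7 rose and 2 fell. Hspb1, the small chaperone HSP27, was 0 to 0.372 CPM (median 0.165) and 1.45 to 40.7 CPM (median 28.1) (log2 fold change 6.57 ± 1.06, adjusted p = 4.4e-06), and Hspd1, the mitochondrial chaperonin, rose by 2.47 ± 0.34. Dnajb1 and Bag3, which stress induces acutely, fell by 0.93 and 0.91.

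Fast-response and clock genes fell in part. Of 17 immediate early genes 14 were tested, 5 fell and 2 rose. Without replicate 3 of the non-irradiated group 4 rose, and within series 1 and series 2 the counts higher were 1 and 6. Jun, a subunit of AP-1, was 316 to 587 CPM (median 465) and 60.0 to 198 CPM (median 84.3) (log2 fold change -2.12 ± 0.37, adjusted p = 1.5e-05), and Zfp36, which degrades inflammatory mRNA, fell by 1.34. Of 19 circadian clock genes 16 were tested, 7 fell and 2 rose, and the series differed for 7 of the 16. Nr1d1, the repressor REV-ERB alpha, fell in both series (-2.56 and -2.14), while Dbp gave -3.03 and -0.32 and Nfil3 0.09 and -4.23. The labels give no time of day for tissue collection. Drug-handling genes (23 of 30 tested) were called higher for 3 and lower for 6, or lower for 10 without replicate 1 of the day 7 group. Within series 1, 0 were lower, and within series 2, 6. Cyp3a62, a gut cytochrome P450, was 993 to 1647 CPM (median 1298) and 234 to 990.3 CPM (median 388) (log2 fold change -1.50 ± 0.41, adjusted p = 0.0023).

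The time course was read from day 7 against day 4, both irradiated and untreated. Over all genes 41 percent were called, 20.3 percent higher at day 7 and 20.7 percent lower (2543 and 2585 genes). A separate fit of the series 1 libraries, with 3 a group, called 54 higher and 112 lower, and one of the series 2 libraries 2868 and 2749. This comparison shares its day 7 libraries with the one above, so the directions of the pair are not independent. Cell division was higher still at day 7: 24 of 25 mitosis genes and 20 of 29 replication genes were higher than at day 4. Ribosome biogenesis genes were higher for 4 of 19, a share near that of all genes. Mki67 stood at 5.29 to 75.6 CPM (median 19.3) at day 4 (log2 day 7 against day 4 1.66 ± 0.40, adjusted p = 0.0014). Myc was 2.28 to 34.8 CPM (median 16.7) at day 4, with no call between the days (adjusted p = 0.58). At day 4 the mitosis sums spanned 70.6 to 634 CPM (median 207), with a lowest library below all of the non-irradiated ones.

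Targets of p53 were lower at day 7 than at day 4. Of 32 tested, 21 were lower and 1 was higher. Cdkn1a was 316 to 477 CPM (median 381) at day 4 (log2 -1.30 ± 0.16, adjusted p = 2.4e-07), Mdm2 93.2 to 159.9 CPM (median 131) (log2 -1.26 ± 0.15, adjusted p = 1.7e-07) and Phlda3 10.0 to 65.2 CPM (median 38.2) (log2 -1.73 ± 0.44, adjusted p = 0.0023). Ccng1 and Phlda3 were thus lower than at day 4 and still above the non-irradiated range, while Cdkn1a overlapped the low end of that range and Mdm2 lay below it. Interferon genes were lower at day 7 than at day 4 for 20 of 34 and higher for 0, and inflammatory genes lower for 11 of 18. Gbp4 was 11.5 to 87.8 CPM (median 46.3) at day 4 and Tnf 0.674 to 7.36 CPM (median 3.37).

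Some falls were seen between the days. For tuft cells 20 of 26 genes were lower at day 7 than at day 4: Trpm5 was 5.64 to 30.1 CPM (median 16.7) at day 4, overlapping the non-irradiated range (log2 -4.92 ± 0.53, adjusted p = 2.5e-08), and Dclk1 was 2.15 to 10.2 CPM (median 5.22) (log2 -3.64 ± 0.51, adjusted p = 2.7e-06). MHC class II followed the same order, with 11 of 14 genes lower at day 7 than at day 4 and Cd74 at 1037 to 3216 CPM (median 2294) at day 4 (log2 -3.51 ± 0.51, adjusted p = 4.3e-06). Apoa4 was 10490.2 to 51805 CPM (median 22326) at day 4 (log2 -2.44 ± 0.45, adjusted p = 9.5e-05) and Gip 79.7 to 289 CPM (median 178). T cell genes were lower at day 7 for 16 of 22, and Cd8a was already at 0.0566 to 2.03 CPM (median 0.471) at day 4 (log2 -3.64 ± 0.82, adjusted p = 0.00079). Lct, by contrast, was 63.8 to 3286 CPM (median 890.4) at day 4, with no call between the days (adjusted p = 0.5).

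Other genes were higher at day 7 than at day 4. Olfm4 was 0.163 to 10.6 CPM (median 1.19) at day 4, below the non-irradiated median of 9.85 CPM, and was higher at day 7 (log2 5.53 ± 0.96, adjusted p = 4.9e-05). Goblet genes were higher at day 7 than at day 4 for 11 of 16 and lower for 2, with Tff3 at 25.6 to 87.8 CPM (median 54.3) at day 4 (log2 1.19 ± 0.41, adjusted p = 0.021). Cholesterol synthesis was higher for 21 of 23 genes, and Sqle was 4.12 to 14.7 CPM (median 7.49) at day 4 (log2 2.36 ± 0.26, adjusted p = 5.4e-08). Anxa10 and Tff1 were gastric-type genes of the later day (log2 5.12 ± 1.12 and 3.30 ± 0.96). Ly6al (179 to 1847 CPM (median 802) at day 4, adjusted p = 0.72), by contrast, was high at both days with no call between them. Fgf19 (0.0613 to 77.4 CPM (median 38.9) at day 4, adjusted p = 0.69) also had no call between the days. Its lowest day 4 library lay under the highest non-irradiated one (0.0636 CPM).

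The irradiated group given water by mouth, a further set of 6 libraries at day 7, was not tested here and gives a look at the same tissue. Its mitosis sum was 481 to 1354 CPM (median 868), against 342 to 1209.5 CPM (median 610.5) in the untreated day 7 group, its MHC class II sum 370.3 to 1198 CPM (median 550.4) against 482 to 1945 CPM (median 1092), and its tuft cell sum 108 to 157 CPM (median 154) against 135 to 192 CPM (median 139). Its brush border sum was 4828 to 48510.3 CPM (median 13418), with a lowest library below any of the untreated group. Lct was 0.837 to 896 CPM (median 35.5) there, and Trpm5 0.261 to 0.941 CPM (median 0.452).

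Within the day 7 group the lists moved against each other from library to library. The mitosis sum was 342, 944, 466, 412, 755 and 1209.5 CPM in replicates 1 to 6. The brush border sum was 53949, 29196, 38848, 42222, 17179 and 12619.6 CPM in the same order. The library with the highest mitosis sum, replicate 6, had the lowest brush border and MHC class II sums, and the library with the lowest mitosis sum, replicate 1, had the highest of both. CPM values of one library share a total, and no correlation was computed over these libraries.

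**Figure D5:**
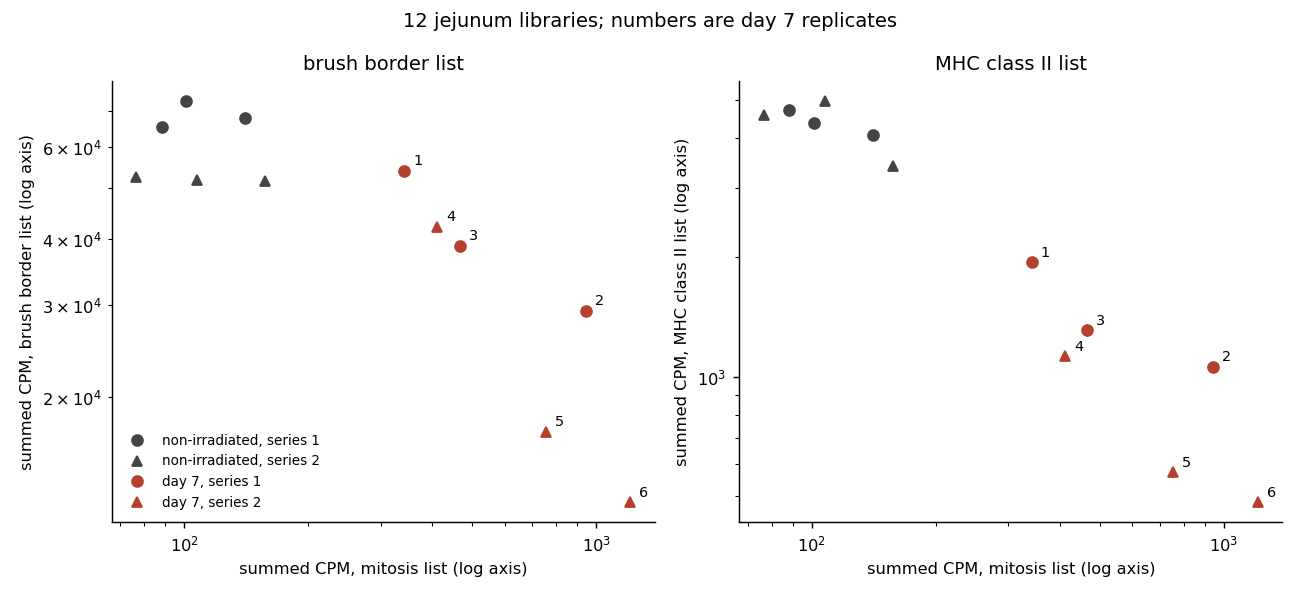
Summed CPM of the brush border list (left) and the MHC class II list (right) against the mitosis list in the 12 libraries (log axes); grey is non-irradiated, red is day 7, circles are series 1, triangles series 2, and numbers are day 7 replicates. Replicates 5 and 6 lie lowest in both panels and replicate 1 lies nearest to the non-irradiated libraries.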

How the data were processed

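The authors deposited raw counts, whole numbers of reads per gene with no normalization, for 21837 genes in tables of the whole series. Per the labels' protocols total RNA was sequenced on a DNBSEQ-G400, and per the submitters' processing notes STAR 2.7.10a and rat build mRatBN7.2 were used. For the counting tool, the annotation and strandedness, the choice is not given in the sources used here. Columns were matched to samples by the library name in each description.

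Here R 4.3.3 and edgeR 4.0.16 were used. Genes passed filterByExpr by group, and sizes were scaled by TMM. A quasi-likelihood model with group and library series was fitted over 42 jejunum libraries. They form 7 groups, those given a Kushen preparation or water by mouth included, which share one estimate of the spread. P-values were adjusted by Benjamini-Hochberg over 12501 genes and called under 0.05. Standard errors are the absolute log2 fold change over the square root of F. The script was tested on simulated data. The labels call replicates biological but name no animals, so p-values measure the spread between libraries. DESeq2 1.42.0 and other settings served as alternatives, and the fit within each library series was added after seeing the data.

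Named are the 10 highest and 10 lowest called genes with a mean of 5 CPM or more in either group, up to 4 called members of each list with the smallest p, and a 46-gene panel; further list members are examples chosen after their values were seen. The members and lists were chosen with earlier results of these data known. Of 966 genes in 46 lists, 56 were not found under a listed name and were not analysed here, and some genes that the rule names are not reported here. Promoter sequences are from RefSeq (GRCr8).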

Additional observations from a re-analysis of the deposited data

Results flagged for a closer look

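A single library stood apart from the other 5 of its group in 20 of 411 gene groups tested, and chance gives about 1 in 20. At day 7 replicate 1 was the lowest library for Il33 (13.1 CPM), Spink4 (7.13 CPM), Pdia3 (291 CPM), Gstp1 (517 CPM), Sult1c2 (0.174 CPM) and Sdf2l1 (33.4 CPM), and replicate 2 for Mdm2 (46.0 CPM). Replicate 3 was the highest for the lymphocyte genes Ccl5 (1.24 CPM) and Gzmf (0.894 CPM). Among non-irradiated libraries replicate 1 was highest for Ly6al (1.04 CPM), Tff2 (0.122 CPM) and Cdh5 (0.244 CPM), and replicate 3 for Fgf19 (0.0636 CPM) and Nt5dc2 (0.254 CPM). Replicate 4 was highest for Tff1 (0.227 CPM), and replicate 6 for Lgr4 (35.9 CPM) and Sult1c2 (1.18 CPM). The lowest were Axin2 in replicate 1 (3.71 CPM), Padi4 in replicate 2 (0.496 CPM) and Cd74 in replicate 6 (1094 CPM).

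Of 59 named genes with a comparison of the days, 37 differed between day 7 and day 4 by edgeR's quasi-likelihood test. The values that follow are log2 fold changes of day 7 against day 4. Among lymphocyte genes, Cd8a was at -3.64, Cd3e at -2.64, Cd7 at -3.08, Ccl5 at -3.79, Gzmf at -3.58, Gimap4 at -2.02 and Gimap7 at -3.21. Plek and Siglec5, given above beside the tuft cell genes, were at -4.81 and -5.56. Tuft cell genes were at -6.43 for Gnat3, -4.92 for Trpm5, -3.64 for Dclk1 and -3.21 for Pou2f3. Cd74 was at -3.51 and RT1-Da at -3.20. Damage and inflammation genes were lower: Cdkn1a at -1.30, Mdm2 at -1.26, Ccng1 at -0.59, Phlda3 at -1.73, Cxcl10 at -1.21, Il1b at -1.75 and Nos2 at -2.31. Also lower were Apoa4 at -2.44, Chga at -1.24, Areg at -1.45, Sox9 at -1.34 and Pinlyp at -1.74. Higher at day 7 were Mki67 at 1.66, Ccnb1 at 1.60, Rrm2 at 1.21, Mcm5 at 1.37, Olfm4 at 5.53, Tff3 at 1.19, Anxa10 at 5.12, Tff1 at 3.30, Nt5dc2 at 2.79 and Sqle at 2.36.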

How the results depend on the processing

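Against non-irradiated jejunum, DESeq2 called 3919 genes higher and 3748 lower, and leaving out 1 library gave 3551 to 4125 higher and 2862 to 3721 lower. A separate fit of the series 1 libraries, with fewer libraries than the within-series values of the report, gave 2124 higher and 1179 lower. Day 7 against day 4 gave 54 higher and 112 lower in that separate fit, and 1184 and 1623 with only the 12 libraries compared. Of 202 named genes called, 119 were called in the same direction under every one of the 22 settings that tested them. A gene that a setting did not test was not counted as changed, and the fit of the 12 libraries tested 191 of 212 named genes. In the separate fit of series 1, 69 lost the call, and in that of series 2, 13. The direction reversed for Tph1 (0.53), Hlf (1.00) and Tff3 (0.15) in the separate fit of series 2 and for Nfil3 (0.0805) in that of series 1, on the log2 scale, and none of these reversed values passed the test; the cause was not tested. Replicate numbers did not pair the samples: deviations of same-numbered day 7 and non-irradiated libraries correlated at -0.117 to 0.417, and 2 of 6 correlated best with their own number. With a replicate block 3853 genes were higher and 3345 lower against non-irradiated jejunum, and 2385 and 2443 against day 4. Genes with few counts are limited by depth, and their ratios are given with counting intervals.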

Other observations

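A few groups outside the comparisons above are given as values. Of 19 mast cell and eosinophil genes 4 were tested and all 4 fell (3 within series 1, 2 within series 2). Without the filter on low counts 7 were lower. A gene near 0 at day 7 could pass that filter only through libraries of other groups. The 4 of 4 therefore cannot be read against the share of all genes. Siglec5 is among the 4 tested. So is Tph1, which lost its call without replicate 1, 2 or 3 of the non-irradiated group and had log2 0.53 in the separate fit of series 2. Il1rl1, another, lost its call without replicate 2, 5 or 6 of the day 7 group or replicate 4 or 6 of the non-irradiated group. Cpa3, a protease of mast cells, was under the filter and not tested. It held 49 counts over the non-irradiated libraries and 0 at day 7, at least 23.6-fold lower. Of 13 genes of enteric neurons and glia 5 were tested, 1 higher and 2 lower. Of 24 nuclear-encoded respiratory chain genes 21 were tested, 2 higher and 7 lower (3 to 4 lower without replicate 5 or 6 of the day 7 group or replicate 5 of the non-irradiated group; 0 lower within series 1, 8 within series 2), and 10 were higher at day 7 than at day 4 with 0 lower. Among 10 genes of exocrine pancreas 2 were tested, and Cpb1, a pancreatic carboxypeptidase, held 0 counts without irradiation and 56 at day 7, at least 12.9-fold higher.

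Nt5dc2, a nucleotidase family member, was 0 to 0.254 CPM (median 0.0615) and 0.464 to 14.1 CPM (median 3.78), and Etv4, an ETS transcription factor of growth factor signalling, 0.0609 to 0.379 CPM (median 0.188) and 2.32 to 29.9 CPM (median 9.62). Pinlyp, an inhibitor of phospholipase, held 0 counts without irradiation and 681 at day 7, at least 157-fold higher.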
